A study of Rattus norvegicus with 13 samples.

Results

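Transcripts of 34 genes of mitochondrial fatty acid beta oxidation were examined in the left ventricle of rats overexpressing the β3-adrenergic receptor (ADBR3 overexpressing in the labels) and of wild-type (WT) rats. The genes were chosen by symbol for their role in the pathway, with earlier results of these data known. On the array 37 probes carry them, among 26115 gene names on 30367 probes in all. Tissue came from 5 overexpressing rats, on 7 arrays, and from 4 WT rats, on 6 arrays. All animals were males aged 45 weeks. How the receptor was overexpressed, in which cells, and from which promoter is not stated in the labels. The rats are called by group and heart number, overexpressing rats 1, 3, 5, 6 and 7 and WT rats 1, 3, 4 and 6. In each group hearts 1 and 2 are the same RNA labelled again, per the labels, and were averaged, while overexpressing heart 4 and WT heart 5 repeat a hybridization of an unnamed rat and were left out of the comparison.

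Beta oxidation is the main source of ATP in the adult heart. Long-chain fatty acids are joined to coenzyme A by acyl-CoA synthetases, carried into the mitochondrion as carnitine esters, and shortened in the matrix in a repeating cycle of a dehydrogenase, a hydratase, a second dehydrogenase and a thiolase. Electrons from the first step of the cycle pass through the electron transfer flavoprotein to ubiquinone. Entry is restrained by malonyl-CoA, which inhibits carnitine palmitoyltransferase at the outer membrane.

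The array read each gene through probes of 60 bases, so each value below belongs to a short stretch of a transcript. Sequences are given, 5′ to 3′, for the members with the largest differences in either direction, Acadsb and Acaa2, and for both probes of Hadha, whose differences had opposite signs. The probe of Acadsb lies at chr1:191026209-191026268 on the plus strand, and that of Acaa2 at chr18:71605225-71605284 on the plus strand, in the build rn4 that the file headers name. The Hadha probes lie on sequence of chromosome 6 that rn4 leaves unplaced. No gene models of that build were used, so exons and untranslated regions were not assigned.
Acadsb: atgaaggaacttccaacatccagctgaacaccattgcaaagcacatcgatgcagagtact
Acaa2: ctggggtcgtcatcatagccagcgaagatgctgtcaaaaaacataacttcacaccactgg
Hadha, probe A_44_P480296: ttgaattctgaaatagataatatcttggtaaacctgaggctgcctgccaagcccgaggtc
Hadha, probe A_64_P055984: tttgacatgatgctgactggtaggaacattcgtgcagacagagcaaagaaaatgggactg
Of the 37 probes, 5 (13.5%) contained the hexamer AATAAA on the probe's strand, the commonest polyadenylation signal near the 3′ end of transcripts, as did 8.4% of all probes. They belong to Acads, Acot7, Crat, Etfb and Ucp3, and 30 bases of each are shown with the hexamer in capitals, because these probes may lie next to the transcript end.
Acads: agctgcctgtggtcAATAAAgctcacctgt
Acot7: gccagcaccactAATAAAgctgctgtctgg
Crat: ttctgccaggcgatcAATAAAgggaagagt
Etfb: tccctgatatgccacAATAAAactgtgcct
Ucp3: ttgtacaaacacAATAAAgaccgcAATAAA
The Ucp3 stretch holds the hexamer at 2 places. A match is a description of the letters in the probe and not a mapped transcript end. Another 5 probes, of Acacb, Acsl5, Etfa, Hadha (A_44_P480296) and Ucp2, span more of the genome than their 60 bases, from 444 to 1438 bases.

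Levels are log2 processed signals set against the array's 75th percentile, which is subtracted, and differences are those of overexpressing minus WT rats, so that 0.26 is a change of about 1.2-fold. Levels of different probes are not comparable with each other. The 75th percentile of the signal lay between 760.4 and 908.7 over the arrays, 55.2% to 67.8% of spots were well above background, and 0 were saturated. All 37 member probes were well above background on every array (7 overexpressing and 6 WT), so all 34 genes entered the comparison and none of their values was at the floor. The 8 cardiomyocyte markers were well above background too, with mean levels of 7.60 to 7.72 in overexpressing rats and 7.49 to 7.78 in WT rats. In bulk tissue, fewer cells of a type and less RNA per cell cannot be told apart.

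Differences between overexpressing and WT hearts were small for most beta oxidation genes. Of the 34 genes, 18 were higher and 16 lower in the mean of the overexpressing rats, and the median difference was 0.0019, beside -0.0089 over all 15367 genes tested, of which 46.7% were higher. The difference was under 0.1 in size for 29 members (85.3%), beside 58.4% of all genes. It was that small for 86.7% of the 15 genes of mitochondrial content listed below and for 100% of the 8 cardiomyocyte markers. The members were also brighter, with a median level of 3.67 beside -0.88 over all genes. The part of brightness in these shares was not tested. No member passed the threshold (0 of 37 probes), the smallest adjusted p being 0.496 in limma's test with Benjamini-Hochberg adjustment over 17587 probes. In the whole comparison 1 probe passed (0.00569%), that of the adenylate kinase Ak1, at 0.55 with an adjusted p of 0.0137, and it no longer passed without overexpressing rat 6 or 7 or without WT rat 3, 4 or 6. At an unadjusted p under 0.05, 1 of 34 members was found (Acadsb, lower), beside 9.34% of all genes, made up of 3.08% higher and 6.27% lower. The groups overlapped for every member (0 of 34 apart), while they did not for 3.52% of all genes.

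**Figure D1:**
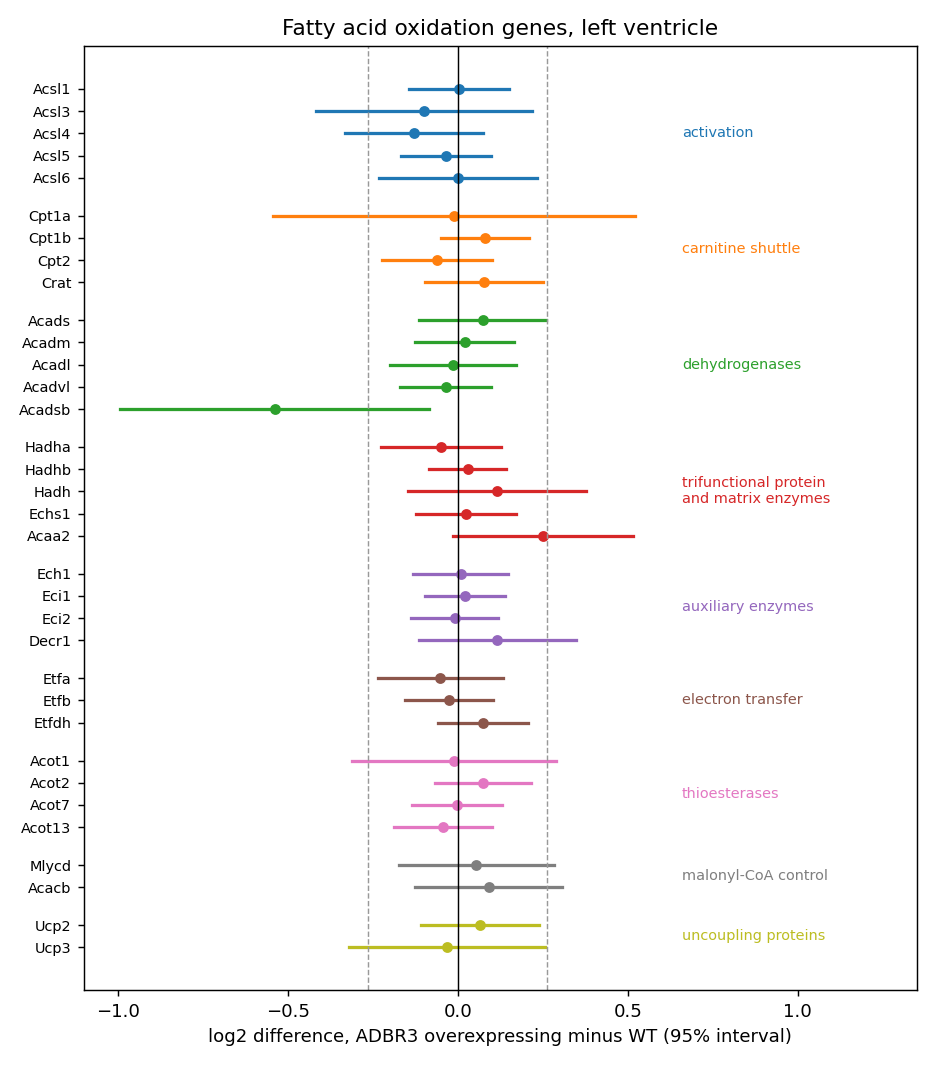
Difference in log2 signal between 5 overexpressing and 4 WT rats (points) with its 95% interval (lines) for each of the 34 genes, ordered by role. The points lie close to 0, Acadsb at -0.54 and Acaa2 at 0.25 lie farthest from it, and the interval of Acadsb is the only one that does not reach 0.

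The intervals say how large a change these 9 rats leave room for. For 23 of the 34 members the 95% interval lay within a change of 1.2-fold either way. It did so for 6835 of 15367 genes, which were dimmer in the median. The lower bound went beyond that size for 6 members and the upper bound for 7. The median SE was 0.0771 for the members and 0.0867 for all genes, and the median SD between rats of a group was 0.114 for the members and 0.133 for all genes. A p above the threshold does not show that the groups are equal.

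**Figure D2:**
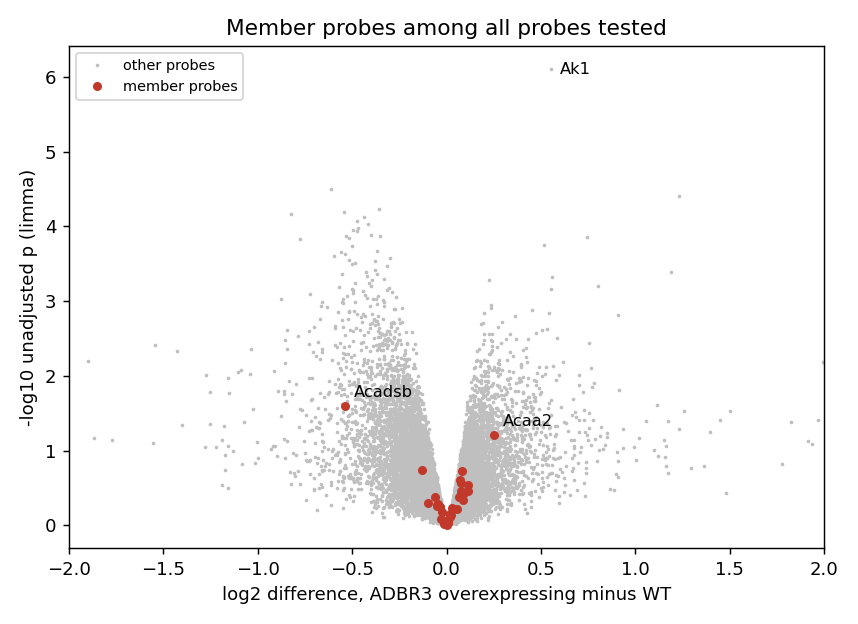
Difference in log2 signal (x axis, overexpressing minus WT rats) against the unadjusted p on a −log10 scale (y axis) for all probes tested, with the 37 probes of the 34 beta oxidation genes in colour. The x axis ends at 2 either way, and 17 probes lie outside it. Acadsb is the single member past an unadjusted p of 0.05, and 29 of the 34 genes lie within 0.1 of no difference.

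The acyl-CoA dehydrogenases carry out the first step of the cycle, each on chains of its own length. Acadsb, which acts on short branched chains and takes part in isoleucine breakdown, had levels of -0.91, -0.80, -1.47, -1.87 and -1.40 in overexpressing rats 1, 3, 5, 6 and 7, against -0.80, -0.69, -0.64 and -0.87 in WT rats 1, 3, 4 and 6. Overexpressing rats 5, 6 and 7 lay well below every WT rat and rat 1 just below them, while rat 3 lay among them. The mean was -1.29 ± 0.437 in overexpressing rats and -0.75 ± 0.103 in WT rats (SD, n = 5 and 4), a difference of -0.54 ± 0.202 (SE) with a 95% interval of -0.995 to -0.084, which corresponds to a 1.45-fold lower signal. Its unadjusted p was 0.0252 and its adjusted p 0.496 in limma's test, and the exact two-sided permutation test over all splits of the 9 rats gave 0.0635, where 0.00794 is the smallest it can give. It did not pass the threshold.

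The other dehydrogenases showed smaller differences. Acadl, for long chains, differed by -0.015 (95% interval -0.20 to 0.17) and Acadvl, the very long-chain enzyme of the inner membrane, by -0.036 (95% interval -0.17 to 0.099). Acadm, the medium-chain enzyme, differed by 0.02 (95% interval -0.13 to 0.17). The short-chain enzyme Acads differed by 0.074 (95% interval -0.11 to 0.26). Over the 5 dehydrogenases 2 were higher and 3 lower, with a median difference of -0.015. Acads ranged from 6.29 to 6.64 in overexpressing rats and 6.29 to 6.39 in WT rats, so that the overexpressing rats reached farther up than the WT rats.

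Of the enzymes that finish the cycle, 4 were higher and 1 lower, with a median of 0.029. Acaa2, the mitochondrial thiolase that releases acetyl-CoA, had levels of 5.16, 4.91, 5.58, 5.10 and 5.25 in overexpressing rats 1, 3, 5, 6 and 7, against 5.02, 4.94, 4.93 and 4.90 in WT rats 1, 3, 4 and 6. Rats 1, 5, 6 and 7 lay above every WT rat and rat 3 below all but WT rat 6. The mean was 5.20 ± 0.246 in overexpressing rats and 4.95 ± 0.0514 in WT rats (SD, n = 5 and 4), a difference of 0.25 ± 0.118 (SE) with a 95% interval of -0.014 to 0.52. Its unadjusted p in limma's test was 0.0609, its adjusted p 0.548, and its exact permutation p 0.0714.

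The trifunctional protein of the inner membrane combines hydratase, hydroxyacyl dehydrogenase and thiolase activity on long chains. Its beta subunit, Hadhb, differed by 0.029 (95% interval -0.085 to 0.14), the narrowest interval of any member. Its alpha subunit, Hadha, was read by the pair of probes printed above. Probe A_44_P480296 had 2.82, 2.87, 2.95, 2.84 and 2.60 in overexpressing rats, against 2.96, 2.88, 2.73 and 2.89 in WT rats, a difference of -0.05 ± 0.0785 (SE). Probe A_64_P055984, a single spot, had 2.62, 2.59, 2.65, 2.38 and 2.64 in overexpressing rats, against 2.56, 2.67, 2.57 and 2.48 in WT rats, a difference of 0.0074 ± 0.0695 (SE). The probes disagreed in sign, both differences were smaller than their SE, and the lowest rat was overexpressing rat 7 on the first probe and overexpressing rat 6 on the second. Hadh, the hydroxyacyl dehydrogenase for shorter chains, ranged from 6.69 to 7.29 in overexpressing rats and 6.77 to 6.93 in WT rats and differed by 0.12 (95% interval -0.15 to 0.38). The short-chain hydratase Echs1 differed by 0.024 (95% interval -0.12 to 0.17).

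The auxiliary enzymes prepare double bonds of unsaturated fatty acids for the cycle. Decr1, the dienoyl-CoA reductase, had levels of 3.62, 3.49, 3.98, 3.69 and 3.83 in overexpressing rats, against 3.65, 3.51, 3.75 and 3.52 in WT rats. Overexpressing rats 5 and 7 were above all WT rats and rat 3 was below them, and the difference was 0.12 ± 0.103 (SE) with an exact permutation p of 0.325. The enoyl-CoA isomerases Eci1 and Eci2 differed by 0.02 (95% interval -0.097 to 0.14) and -0.0098 (95% interval -0.14 to 0.12). The dienoyl-CoA isomerase Ech1 differed by 0.0082 (95% interval -0.13 to 0.15). Of the 4 genes 3 were higher and 1 lower, with a median of 0.014.

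The carnitine shuttle moves long-chain acyl groups across the inner membrane. Cpt1b, the heart and muscle form of its outer enzyme, had levels of 5.95, 6.03, 6.14, 6.01 and 6.17 in overexpressing rats, against 5.97, 5.94, 5.99 and 6.01 in WT rats on the brighter of its probes. Overexpressing rats 5 and 7 were above every WT rat, rat 3 was too, by a small margin, and rats 1 and 6 lay among them. The difference was 0.081 ± 0.0573 (SE) with a 95% interval of -0.048 to 0.21 and an adjusted p of 0.665 in limma's test. Its dimmer probe, A_64_P106151, a single spot, had -1.62, -1.44, -1.64, -1.78 and -1.69 in overexpressing rats, against -1.78, -1.97, -1.68 and -1.44 in WT rats, and differed by 0.085 ± 0.109 (SE). The second probe thus had the same sign as the first, with wider spread. Crat, carnitine acetyltransferase of the matrix, had 6.21, 6.08, 6.49, 6.26 and 6.35 in overexpressing rats, against 6.22, 6.19, 6.19 and 6.20 in WT rats. Its WT rats lay within 0.04 of each other while the overexpressing rats lay on both sides of them, with a difference of 0.077 ± 0.0774 (SE) and an exact permutation p of 0.357.

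Cpt1a, the liver form of the outer enzyme, had the largest spread of any member and is named for that after its values were seen. Its levels were 0.073, -0.55, -1.02, -0.99 and -1.02 in overexpressing rats, against -0.77, -0.87, -0.32 and -0.81 in WT rats. Overexpressing rat 1 was the highest of the 9 rats, and rats 5, 6 and 7 were the lowest. The difference was -0.012 (95% interval -0.54 to 0.52), wide enough to hold a change of more than 1.2-fold either way. Cpt2, the enzyme on the inner side, differed by -0.061 (95% interval -0.22 to 0.10). Of the 4 shuttle genes 2 were higher and 2 lower, with a median of 0.033.

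Malonyl-CoA is made at the outer membrane by Acacb, acetyl-CoA carboxylase beta, and removed by Mlycd, malonyl-CoA decarboxylase. Acacb differed by 0.091 (95% interval -0.12 to 0.31), with levels of -2.11 to -2.05 in overexpressing rats and -2.44 to -1.89 in WT rats, and Mlycd by 0.054 (95% interval -0.17 to 0.28). Both were higher in the mean, each by less than its SE. The overexpressing rats were close together for Acacb, with an SD of 0.0231 beside 0.226 in WT rats, and the 2 labelings of WT rat 1 differed by 0.80 on that probe.

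Acyl-CoA synthetases activate fatty acids. Acsl4, which prefers arachidonate, had levels of -3.59, -3.53, -3.89, -3.52 and -3.69 in overexpressing rats, against -3.62, -3.38, -3.60 and -3.47 in WT rats. Overexpressing rats 5 and 7 were below every WT rat, and the difference was -0.13 ± 0.0897 (SE) with a 95% interval of -0.33 to 0.073 and an exact permutation p of 0.222. Acsl1, the main synthetase of the heart, differed by 0.0032 (95% interval -0.15 to 0.15). Acsl3 differed by -0.099 (95% interval -0.42 to 0.22), Acsl5 by -0.035 (95% interval -0.17 to 0.096) and Acsl6 by 0.00055 (95% interval -0.23 to 0.23). Of the 5 synthetases 2 were higher and 3 lower, with a median of -0.035.

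Electron transfer from the dehydrogenases runs through Etfa and Etfb, the subunits of the electron transfer flavoprotein, to Etfdh, its ubiquinone oxidoreductase. Etfdh had levels of 3.03, 3.03, 3.18, 2.98 and 2.99 in overexpressing rats, against 3.03, 3.03, 2.93 and 2.90 in WT rats. Overexpressing rat 5 stood above the other 8 rats, which lay within 0.14 of each other. The difference was 0.073 ± 0.0586 (SE) with an exact permutation p of 0.222. Etfa differed by -0.051 (95% interval -0.23 to 0.13) and Etfb by -0.026 (95% interval -0.16 to 0.10), so that 1 of the 3 was higher and 2 were lower, with a median of -0.026.

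Acyl-CoA thioesterases release free fatty acid from its coenzyme A ester. Acot2, the mitochondrial form, had 3.07, 2.94, 3.07, 2.98 and 3.16 in overexpressing rats, against 2.97, 3.06, 2.86 and 3.00 in WT rats on probe A_42_P597638, a difference of 0.074 ± 0.0626 (SE). On probe A_64_P103901 it had -1.18, -1.37, -1.35, -1.35 and -1.31 in overexpressing rats, against -1.23, -1.07, -1.54 and -1.36 in WT rats, a difference of -0.012 ± 0.0922 (SE). The groups overlapped on each probe and the signs differed. Acot1, its cytosolic neighbour, differed by -0.011 (95% interval -0.31 to 0.29). The Acot1 probe lies 25.4 and 26.6 kb from the Acot2 probes on chromosome 6 of rn4, and as close paralogues the genes may share hybridization, which was not tested. WT rat 4 was the lowest of the 9 rats on all 3 of these probes. Acot7 differed by -0.0023 (95% interval -0.13 to 0.13) and Acot13 by -0.043 (95% interval -0.19 to 0.10). Over the 4 thioesterases 1 was higher and 3 lower, with a median of -0.0067.

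The uncoupling proteins are inner membrane carriers often studied with fatty acid oxidation in muscle. Ucp3 differed by -0.032 (95% interval -0.32 to 0.26) and Ucp2 by 0.066 (95% interval -0.11 to 0.24), 1 lower and 1 higher. The Ucp3 levels were 0.37 to 0.85 in overexpressing rats and 0.34 to 0.78 in WT rats, which is nearly the same range.

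**Figure D3:**
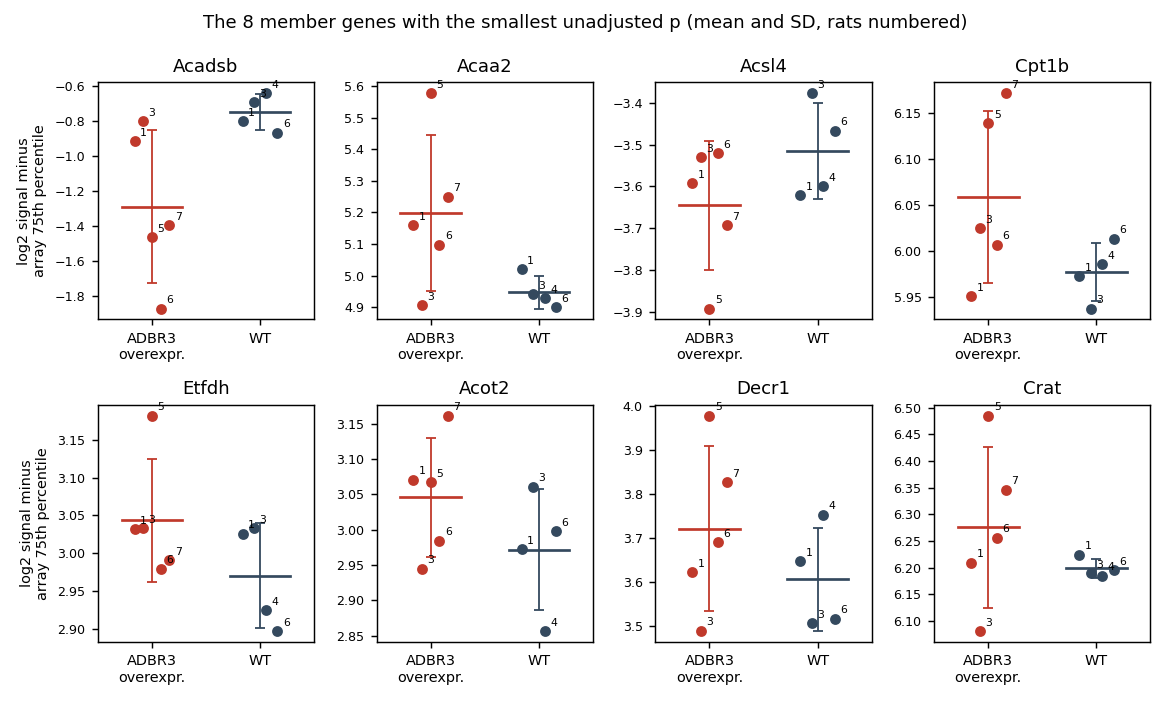
Level in every rat (log2 signal minus the 75th percentile of its array) for the 8 members with the smallest unadjusted p, with overexpressing rats left of WT rats, heart numbers beside the points and bars at the group means. Overexpressing rats 1, 5, 6 and 7 lie below the WT rats for Acadsb, rats 1, 5, 6 and 7 lie above them for Acaa2, and the groups overlap in every panel.

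Single rats stood at an end of the range for many members. Overexpressing rat 5 had the highest level of the 9 rats for 12 of 34 members (35.3%), beside 8.89% of all genes, and lay above the mean of the 9 rats for 29 members (85.3%), beside 46.9% of all genes. Rat 7 was highest for 8 members (23.5%), beside 12.2% of all genes. Rat 3 was highest for 0 members, beside 9.66% of all genes, and rat 6 lay above the mean for 7 (20.6%), beside 50.9% of all genes. The median deviation from the 9-rat mean over the members was -0.011, -0.052, 0.083, -0.043 and 0.069 in overexpressing rats 1, 3, 5, 6 and 7, against 0.0033, -0.0019, -0.034 and 0.024 in WT rats 1, 3, 4 and 6. The overexpressing rats thus lay on both sides of the WT rats, and no test was made of rats picked by their own values.

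Rat 5 was highest, with rat 7 next, for Acaa2, Acads, Crat, Decr1, Eci2 and Hadh, and rat 7 was highest, with rat 5 next, for Acsl1, Cpt1b and Mlycd. The share of members highest in rat 5 depended on the scaling, at 20.6% after quantile normalization (9.7% of all genes), 64.7% after scaling on the array median (21.3%), 35.3% after normexp background correction (8.23%) and 17.6% in the authors' values (9.14%), and it was above that of all genes each time. For rat 7 the same scalings gave 7 members (20.6%), 3 (8.82%, beside 6.44% of all genes), 8 (23.5%, beside 10.1%) and 9 (26.5%, beside 11.1%), so that rat 5 led in more members than rat 7 with array median scaling and normexp, in as many after quantile normalization and in fewer, 6, in the authors' values. The SD was larger in overexpressing than in WT rats for 22 of 34 members (64.7%), beside 52.1% of all genes, with a median SD of 0.109 in overexpressing rats and 0.0931 in WT rats. Over 15 genes of mitochondrial content, such as respiratory chain subunits, the median deviation was 0.045 in overexpressing rat 5 and 0.061 in overexpressing rat 7, and the part of mitochondrial content in the members' pattern was not tested.

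**Figure D4:**
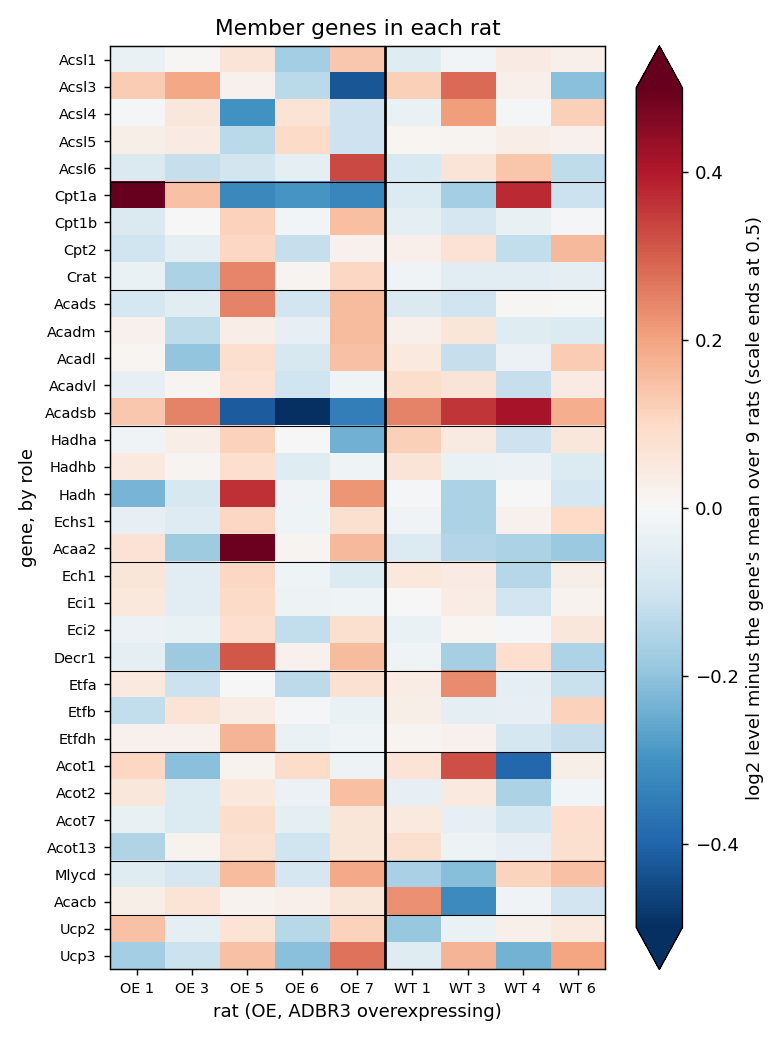
Deviation of each of the 34 genes from its mean over 9 rats (log2 scale, colour), with overexpressing rats in the left columns and WT rats in the right ones, and genes ordered by role. Overexpressing rat 5 is above the mean in 29 of 34 rows and overexpressing rat 6 in 7, while no column block separates the groups.

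Arrays were scanned on 5 slides over 2 days. Of the slides, 3 held both groups, with 1 overexpressing and 1 WT rat on slide 1, 1 and 2 on slide 3, and 3 overexpressing arrays and 1 WT array on slide 4. The WT array and 1 overexpressing array of slide 4 are the replicate hybridizations of unnamed rats left out elsewhere, so that these values, and those of scan day 2, may repeat rats of other slides. The difference of Acadsb was -0.76, -0.16 and -0.79 within slides 1, 3 and 4, and that of Acaa2 was 0.32, 0.21 and 0.26. The median difference over the members in these slides was 0.092, -0.019 and 0.032. Within scan days 1 (3 overexpressing units and 1 WT unit) and 2 (4 and 4), where a unit is the arrays of a rat on that day or a replicate hybridization, Acadsb differed by -0.37 and -0.56 and Acaa2 by 0.18 and 0.23, with member medians of 0.029 and 0.013. With groups of 1 array in most of these, the values are a description and no direction is read from them. Slides 2 and 5 held 1 group only. Overexpressing rats 5 and 6, which lay at opposite sides of the mean, shared slide 4, and overexpressing rat 7 shared slide 1 with WT rat 4.

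Replicate labelings of a rat were close for most members, with a median difference in size of 0.042 in the overexpressing pair and 0.042 in the WT pair. The largest was 0.46 for Hadh in overexpressing rat 1 and 0.80 for Acacb in WT rat 1. The overexpressing labelings were on different slides and scan days (slide 3, day 2, and slide 2, day 1). Both WT labelings were on slide 3, day 2, so the pairs are not the same measure. For Acadsb the labelings of overexpressing rat 1 read -0.9994 and -0.8274, and the replicate hybridizations left out read -0.88 on overexpressing heart 4 and -0.62 on WT heart 5.

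Other genes of or around the pathway and its regulators, listed for comparison, also had median differences near 0. Of 29 further genes of or around mitochondrial fatty acid oxidation 23 were tested, 11 higher and 12 lower. Their median was -0.0028, and none passed the threshold. The list reaches into neighbouring pathways, such as fatty acid synthesis. At an unadjusted p under 0.05 stood Slc22a5, Dld and Mcat. Slc22a5, the carnitine transporter of the cell membrane, was at -0.37 (adjusted p 0.455 in limma's test). Dld, the lipoamide dehydrogenase subunit, was at -0.16, and Mcat, the malonyl transferase of mitochondrial fatty acid synthesis, at 0.18. The labelings of WT rat 1 read -2.50 and -2.93 on the Mcat probe, farther apart than the groups. Slc22a5 had -3.96, -4.12, -4.03, -4.14 and -4.26 in overexpressing rats, against -3.81, -3.75, -3.36 and -4.02 in WT rats, so that the groups overlapped at WT rat 6. Dld had 4.06, 3.98, 3.92, 3.74 and 3.96 in overexpressing rats, against 4.10, 4.10, 4.06 and 4.10 in WT rats. Its groups did not overlap, by a narrow margin. Groups were apart for 1 of the 23 genes, beside 3.52% of all genes. At an unadjusted p under 0.05 in limma's test, 1 of the 23 was higher and 2 were lower, beside 3.08% and 6.27% of all genes. Of the 20 genes of the PPAR alpha regulon and its regulators, the main transcriptional control of the pathway, 11 were higher and 9 lower, with a median of 0.014. Slc22a5 and Slc25a20 are counted in this list and in the one before it. The genes of this list under an unadjusted p of 0.05 were Slc22a5, lower and described above, and Plin5, higher. Plin5, which coats lipid droplets beside mitochondria, was at 0.21 with an unadjusted p of 0.045 in limma's test, and its groups overlapped. Its probe is a single spot, on which the labelings of overexpressing rat 1 read -0.59 and -0.22. The 15 genes of mitochondrial content had 8 higher and 7 lower and a median of 0.0011. Among them Ogdh, a subunit of the oxoglutarate dehydrogenase complex of the citric acid cycle, was at 0.12 with an unadjusted p of 0.0496 in limma's test (adjusted p 0.543), and its groups overlapped.

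Markers of other cells that a piece of ventricle can hold gave 0 calls past the threshold as well. The median difference was 0.12 over 4 of 7 adipocyte markers tested. It was 0.11 over 7 of 7 fibroblast markers, all higher, and -0.034 over 7 of 7 endothelial markers. Over the 8 macrophage and myeloid markers it was -0.13, where Adgre1 and Emr1, both among the 9 symbols listed, name the same gene. Over 3 of 7 lymphocyte markers it was -0.68, all lower. Of the lymphocyte markers the T cell genes Cd8a, at -0.78, and Cd3g, at -0.68, had unadjusted p-values of 0.0277 and 0.0490 in limma's test (adjusted p 0.501 and 0.542). Cd8a was near the floor, well above background on only 3 of 7 overexpressing and 4 of 6 WT arrays. The labelings of overexpressing rat 1 differed by 0.56 on its probe. Cardiomyocyte markers had a median of -0.035 over 8 of 8 and atrial markers 0.23 over 4 of 4. Mean levels of the adipocyte markers ranged from -1.59 to 1.07 in overexpressing rats and from -1.01 to 0.070 in WT rats, and those of the atrial markers from 4.03 to 6.23 in overexpressing rats and from 4.03 to 5.16 in WT rats. Overexpressing rat 6, the lowest for Acadsb, had the highest median deviation from the 9-rat mean over both marker lists, 1.26 (adipocyte) and 1.88 (atrial). Of the adipocyte markers it was highest for Adipoq and Retn, which were dim and not well above background on every array. For the brighter Fabp4 and Cfd a WT rat was highest, WT rat 6 at 3.32 and WT rat 4 at 1.95. Of the atrial markers it was highest for Nppa, Sln and Myl7, and overexpressing rat 7 was highest for Myl4. Overexpressing rats 5 and 7 were also below every WT rat for Acadsb. Yet rat 7 had the lowest median deviation for both lists, -0.97 and -0.57, and rat 5 was at 0.18 and -0.14. The part of these markers in the Acadsb values was not tested.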

How the data were processed

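Left ventricular RNA was labelled with Cy3 and hybridized to Agilent arrays of design 028279, per the labels' protocols and the file headers. The intensity values deposited by the authors are background-subtracted processed signals from Agilent Feature Extraction 10.7.1.1, per the file headers, with no scaling between arrays recorded. The authors also deposited a table of natural log values, which track ln of the median spot brightness (r of 0.9988 to 0.9999 across probes). Its column medians lay between 5.695 and 5.73, how it was scaled across arrays is not stated, and it served as an alternative.

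Intensities were turned into log2 values minus each array's 75th percentile, spots of a probe were averaged, and labelings of a rat were averaged. Probes well above background in 4 or more of the 9 rats were kept, 17587 in all, and the brightest probe stood for each of 15367 genes. The difference between groups was fitted in limma 3.58.1 (lmFit, eBayes, R 4.3.3), with Benjamini-Hochberg adjustment over all probes at 0.05. The fit was also run on simulated data. The differences planted there were larger than that of any member, so the run does not bear on differences of the members' size. Single values were compared with exact two-sided permutation tests. Slide and scan day were tried as blocks. Nothing in the labels says how the rats were bred or housed. The p-values from limma set a difference against the spread within the groups of these 9 rats, taken as independent. The number of rats limits the precision. All 37 member probes matched RefSeq symbols by accession (table of assembly GRCr8). The members and lists were chosen with earlier results of these data known. Per-rat values are given for the 8 members with the smallest unadjusted p and for members whose probes disagreed in sign. From the other lists up to 3 genes per direction with an unadjusted p under 0.05 are named. Same-numbered rats (1, 3 and 6) were not paired in the main comparison, and their deviations from the group means correlated at 0.115, 0.035 and 0.116. Among WT rats 1, 3 and 6, rat 1 correlated best with overexpressing rats 1 and 3, and rat 6 with overexpressing rat 6. Overexpressing heart 1 shared slide 3 with both arrays of WT rat 1.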

Additional observations from a re-analysis of the deposited data

Results flagged for a closer look

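Dixon's criterion for a sample far from its group marked 4 of 74 groups of rats (37 probes in both groups), where chance marks about 1 in 20. Etfdh was at 3.18 in overexpressing rat 5, while the other overexpressing rats lay between 2.98 and 3.03. Hadha on probe A_64_P055984 was at 2.38 in overexpressing rat 6, while the others lay between 2.59 and 2.65. Acsl6, an acyl-CoA synthetase, was at -1.16 in overexpressing rat 7, while the others lay between -1.60 and -1.53. Ech1 was at 4.93 in WT rat 4, while the other WT rats lay between 5.11 and 5.13.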

How the results depend on the processing

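Under 24 alternatives 0 member probes passed the threshold, with adjusted p-values from 0.337 upward. Acadsb stayed lower (-0.66 to -0.39) and Acaa2 higher (0.10 to 0.32) in all 24, as did the direction of Acsl3, Acsl4, Cpt1b, Cpt2, Hadhb, Decr1, Etfdh, Acot13 and Ucp2, while the other members changed sign in at least 1. The median difference of the members lay between -0.029 (rats 1, 3 and 6 alone) and 0.043 (array median scaling). Differences moved by more than the SD between rats 8 times, for Acot1 and Acot2 with slide as a block (to 0.21 and 0.18) and for Cpt2, Acot7 and Ucp3 on rats 1, 3 and 6 with and without the block. Member genes at an unadjusted p under 0.05 (1, Acadsb) numbered 2 with array median scaling, in the authors' values, with a trended, robust variance, and with normexp and quantile normalization, where Acaa2 joined, 2 with slide as a block, where Acot2 joined, and 3 with normexp and the 75th percentile, where both joined. Leaving out 1 rat in turn gave 0 to 2, and 0 without overexpressing rat 5 or 7 or WT rat 3 or 4. Probes past the threshold (1) numbered 2 with normexp and quantile normalization and with slide as a block, 6 with scan day as a block and 6 with a trended, robust variance, and 0 to 14 leaving out 1 rat, with 14 without overexpressing rat 3. Ak1 did not pass with no filter on dim probes, without overexpressing rat 6 or 7 or WT rat 3, 4 or 6, or on rats 1, 3 and 6 alone. Array median scaling put 27 members higher and 7 lower (18 and 16 before), and moved the median of all probes from -0.0094 to 0.032. Normexp with the 75th percentile put 21 higher and 13 lower, and slide as a block 21 and 13. On rats 1, 3 and 6 alone, 10 members were higher and 24 lower, 0 probes passed with the replicate block and 0 without it, and 1 member (Ucp3) was under 0.05 with it and 2 (Cpt2 and Ucp3) without. The cause of these shifts was not tested. In the slide and day fits no correlation between arrays of a rat could be estimated, so repeat hybridizations count as separate units and their p-values are too small. That change, and the scalings tried on the order of the rats, were chosen after seeing the data.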
